A study of Homo sapiens with 3 samples.

Results

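Classical cadherins and the catenins bound to them were examined in H1975 cells and in OR1 and OR2, a pair of osimertinib-resistant lines. The 10 genes CDH1, CDH2, CDH3, CDH4, CDH6, CDH11, CDH13, CTNNA1, CTNNB1 and CTNND1 were picked out by symbol among 43316 gene symbols measured by microarray. They were chosen with earlier results of these data known. They were covered by 18 of 58200 probes, each 60 bases long, and every probe of the 10 genes is given. H1975 is a non-small cell lung cancer line harboring mutated EGFR and is sensitive to osimertinib, an EGFR tyrosine kinase inhibitor. Both resistant lines descend from H1975 and were selected in culture for 4 months under osimertinib, the highest concentration of which was 2 μmol/L. All 3 lines were grown in RPMI medium with fetal bovine serum, and each resistant line is a single derivative. RNA of each line was hybridized to 1 array, and the 3 arrays lay on the same slide.

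Cadherins are calcium-dependent receptors of the cell surface that bind a cadherin on the neighbouring cell. In classical cadherins the tail inside the cell binds β-catenin, which recruits α-catenin and thereby actin, while p120-catenin binds the tail near the membrane and keeps the cadherin from being internalised. E-cadherin holds epithelial cells of the airway and alveolus together, N-cadherin is typical of mesenchymal and neural cells, and β-catenin not held at the membrane is the transcriptional partner of TCF factors in Wnt signaling. CDH13 is an atypical member, anchored by lipid and without a catenin-binding tail.

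Intensity is the background-corrected brightness of a probe, and a ratio is the intensity in a resistant line over that in H1975, after each array was divided by its 75th percentile (157 in H1975 against 138 in OR1 and 162 in OR2). A gene was called higher or lower at a ratio of at least 2 or at most 0.5, the ratios used in the study's methods. A probe not well above background on 1 side of a ratio was set there to the lowest intensity that passed as well above background (12.6 in H1975 against 11.4 in OR1 and 12.6 in OR2), which makes the ratio a bound. The technical SD on the log2 scale comes from the scanner software's error of each spot, has a median of 0.20 over genes in both lines, and leaves out the spread from culture to culture. Where a ratio is a bound, this SD is that of the readings before the low side was raised, not of the bound. No line had a second array, so there was no replicate and no test of a single line against H1975. In bulk RNA of this kind, a lower fraction of cells expressing a gene and less RNA of it per cell cannot be told apart. At least 1 array had a reading well above background for 7 of the 10 genes, and all 3 arrays did for 5. Where only above background is written, well above background is meant.

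CDH1, which encodes E-cadherin, and CDH3, which encodes P-cadherin of epithelial and basal cells, were lower in both resistant lines than in H1975, and both were lower in OR1 than in OR2. None of the 10 genes was higher in both resistant lines. CDH2, the gene of N-cadherin, was not well above background in any of the 3 lines. The catenin genes CTNNA1, CTNNB1 and CTNND1 stayed within the ratios of 2 and 0.5 when read from their brightest probes. Of the 22418 genes well above background on at least 1 array, 6.32% were lower in both lines and 5.09% were higher in both. Among the 7 of the 10 cadherin and catenin genes that met the same condition, the counts were 2 and 0. In OR1, whatever the change in OR2, 9.34% of genes were lower and 8.95% higher, against 2 and 0 of the cadherin and catenin genes. In OR2, whatever the change in OR1, 8.41% of genes were lower and 7.47% higher, against the same counts of 2 and 0.

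The probe sequences that carry these values are given for the cadherins that changed, for CDH2, for the CTNNA1 probes, which gave unlike ratios, and for the CTNNB1 probes, of which the brighter was spotted repeatedly. The first 30 of the 60 bases are shown as the files give them.
CDH1: aaatcaaccctgcaatcactttttggaatt
CDH3: tgcgttttaatactgagtgtgcctaagttg
CDH2, probe at 25530936: taccagaatataaatgatacacctctgacc
CTNNA1, probe at 138270387: tgcttttttaggctacagtgtctcgatgcc
CTNNA1, probe at 138266534: caaaaatacatcggatgtcatcagtgctgc
CTNNB1, probe at 41281749: tgatcaaaaactatttgggatatgtatggg
CTNNB1, probe at 41280687: atgatggaacatgagatgggtggccaccac
Both CDH1 and CDH3 rest on a single probe sequence. The paired probes of CTNNA1 and of CTNNB1 have different sequences at different positions of the same gene, so each pair gives separate readings of 1 RNA sample.

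CDH1 (NM_004360) was read by a probe spotted 10 times on each array, which lies on chromosome 16 (hg19) from 68869214 to 68869273. CDH1 intensity reached 5644 in H1975 against 101 in OR1 and 464 in OR2. The transcript was well above background in all 3 lines, so neither resistant line had fallen to a bound. The ratio to H1975 was 0.0205 in OR1, a log2 ratio of -5.61 with a technical SD of 0.21, which is 48.8-fold lower. In OR2 the ratio was 0.0800, a log2 ratio of -3.64 with a technical SD of 0.20, or 12.5-fold lower. OR2 thus kept more CDH1 signal than OR1. The ratio of OR2 to OR1 was 3.90, a log2 difference of 1.96.

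The 10 spots gave the spread of the CDH1 measurement within an array. Their intensities ran from 5204 to 6002 in H1975, from 83.2 to 114 in OR1 and from 430 to 492 in OR2. No spot of a line overlapped with a spot of another line. The SD between spots on the log2 scale was 0.064, 0.146 and 0.060 in H1975, OR1 and OR2, so the largest spread within an array was in the line with the lowest intensity. These spots are repeated readings of 1 RNA sample.

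**Figure D1:**
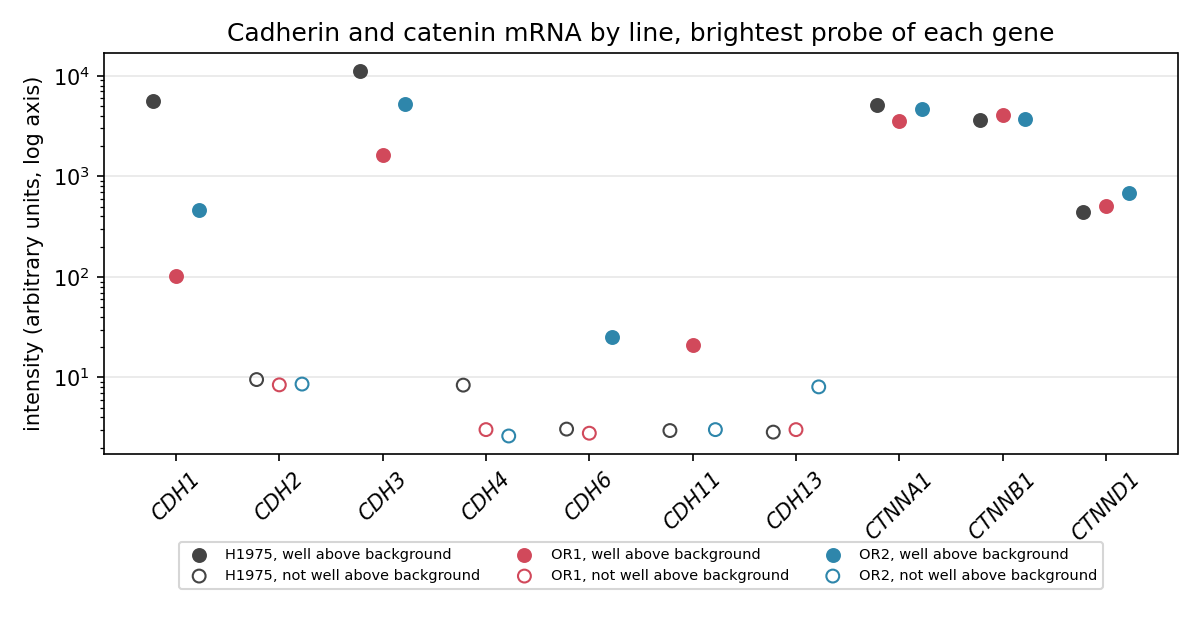
Intensity (arbitrary units, log axis, before scaling between arrays) of the brightest probe of each of the 10 genes, for H1975, OR1 and OR2. Each point is 1 probe on 1 array, filled where it was well above background and open where it was not. CDH1 and CDH3 are highest in H1975 and lowest in OR1, the CDH2 points are open in all 3 lines, and the 3 points of each catenin lie close together.

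CDH3 (NM_001793) lies beside CDH1 on chromosome 16, and its probe spans 68732812 to 68732871. The intensity of CDH3 was 11122 in H1975 against 1623 in OR1 and 5291 in OR2. The order of the lines was the order seen for CDH1, with OR1 lowest. The ratio of CDH3 to H1975 was 0.166 in OR1, a log2 ratio of -2.59 and a 6.01-fold decrease. In OR2 the ratio was 0.463, a log2 ratio of -1.11 and a 2.16-fold decrease. The OR2 value lay close to the ratio of 0.5, and with quantile normalization it was 0.527, outside the call, while OR1 was 0.176 and stayed within it. Between the resistant lines, CDH3 was higher in OR2 by a ratio of 2.78. CDH1 and CDH3 were the 2 cadherin and catenin genes with an OR2 to OR1 ratio of at least 2, which 2.37% of genes reached. None had a ratio of at most 0.5, which was found in 2.76% of genes.

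The genes whose pair of log2 ratios lay nearest to CDH1 were AIM2, a cytosolic DNA sensor, and SLCO2A1, a prostaglandin transporter. They were found among 18590 other genes well above background on all 3 arrays, by the distance between the pairs of log2 ratios over the 2 resistant lines. AIM2 had ratios of 0.0182 in OR1 and 0.0969 in OR2, at a distance of 0.32 from CDH1. SLCO2A1 had ratios of 0.0265 and 0.0680, at a distance of 0.44. The genes nearest to CDH3 were KLHL3, a substrate adaptor of a ubiquitin ligase, and CYP2S1, a cytochrome P450. KLHL3 had ratios of 0.170 and 0.469, at a distance of 0.034. For CYP2S1 they were 0.152 and 0.462, at a distance of 0.13. CDH1, with the more extreme ratios, therefore had no neighbour as near as those of CDH3.

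CDH2 (NM_001792) was measured by a pair of probes on chromosome 18. The brighter probe, from 25530936 to 25530995, had intensities of 9.53 in H1975 against 8.45 in OR1 and 8.60 in OR2. The other, from 25532081 to 25532140, gave 5.69, 2.86 and 3.09. All 6 values were below the lowest intensity accepted as well above background on their array, so CDH2 has no ratio. A change of CDH2 relative to CDH1 could therefore not be computed, and the data hold no reading of CDH2 above background in OR1 or OR2. CDH4, the gene of R-cadherin, was likewise not well above background, with intensities of 8.40, 3.03 and 2.62 (NM_001794, chromosome 20, 60511966 to 60512025). CDH13 was represented by 3 probes, at 83214494, 83830027 and 83834143 on chromosome 16. Their intensities lay between 2.46 and 8.06 over the 3 lines, and none was well above background.

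CDH6 and CDH11, type II cadherins known from kidney and from mesenchymal cells and bone, were each well above background in 1 resistant line, with 1 of their 2 probes. For CDH6 the probe at 31250260 to 31250319 of chromosome 5 (ENST00000506396) gave intensities of 3.07 in H1975 against 2.79 in OR1 and 25.6 in OR2. The ratio in OR2 was at least 1.98, just short of the call, and that of OR2 to OR1 was at least 1.91. The other CDH6 probe (NM_004932, from 31324207) gave 2.90, 2.62 and 2.90 and was above background nowhere. CDH11 was above background in OR1 only. Its probe at 64980869 to 64980928 of chromosome 16 (NM_001797) gave intensities of 2.97, 21.0 and 3.03 in H1975, OR1 and OR2. The ratio in OR1 was at least 1.91, and OR2 over OR1 was at most 0.512. The other CDH11 probe, from 64982513, gave 2.93, 2.71 and 2.95 and was above background nowhere. The technical SD of the CDH6 and CDH11 readings, before the low side was raised, was 1.47, far wider than that of CDH1. Their other probes did not show a signal.

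**Figure D2:**
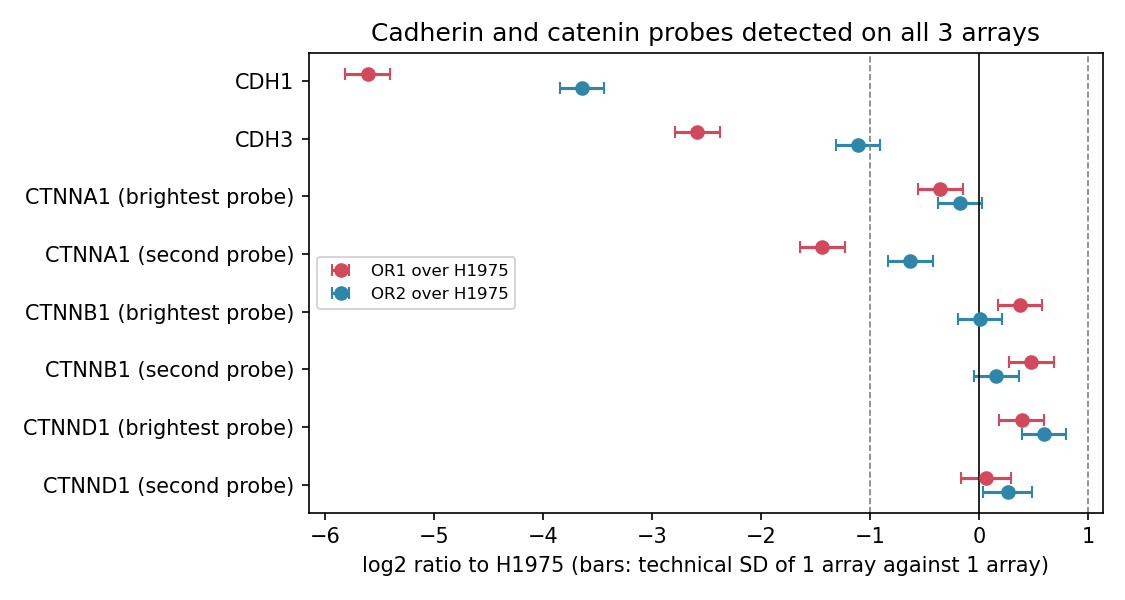
Log2 ratio of OR1 and of OR2 to H1975 for each probe that was well above background on all 3 arrays, with bars of 1 technical SD and dashed lines at the ratios of 2 and 0.5. CDH1 and CDH3 lie below the lower line in both resistant lines, the second CTNNA1 probe does so in OR1, and no probe lies above the upper line.

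CTNNA1 encodes αE-catenin, the link from the cadherin complex to actin, and its 2 probes on chromosome 5 (both NM_001903) gave unlike ratios. The brighter, from 138270387 to 138270446, had intensities of 5189 in H1975 against 3554 in OR1 and 4712 in OR2. Its ratios were 0.781 in OR1 and 0.884 in OR2, log2 ratios of -0.36 and -0.18. The second probe, from 138266534 to 138266593, had intensities of 982, 317 and 651. Its ratios were 0.369 in OR1 and 0.645 in OR2, log2 ratios of -1.44 and -0.63. Both probes were lower in the resistant lines and lowest in OR1, but the second alone passed the ratio of 0.5, and in OR1 alone. The second probe also separated the resistant lines more, at 1.75 for OR2 over OR1 against 1.13. The size of the CTNNA1 change was thus not settled between the 2 probes, and the median over them was 0.537 in OR1 and 0.755 in OR2.

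CTNNB1, the gene of β-catenin on chromosome 3, did not pass either ratio with any probe. The brighter probe (NM_001904, from 41281749 to 41281808) was spotted 10 times and gave 3624 in H1975 against 4118 in OR1 and 3737 in OR2. The ratio was 1.30 in OR1 and 1.003 in OR2. The log2 ratio of 0.37 in OR1 stands beside a technical SD of 0.20. The 10 spots ranged from 3342 to 3746 in H1975, from 3940 to 4337 in OR1 and from 3495 to 4048 in OR2. Divided by the 75th percentile of their array, the spots ranged from 21.2 to 23.8, from 28.5 to 31.4 and from 21.6 to 25.02. On that scale OR1 spots lay above all spots of the other lines, whereas OR2 and H1975 overlapped. The second CTNNB1 probe (NM_001098210, from 41280687 to 41280746) gave 423, 517 and 484, with ratios of 1.39 and 1.11. The direction in OR1 depended on the scaling, and the brighter probe had a ratio of 0.854 when the arrays were scaled on spike-in probes. Under that scaling the median gene of OR1 shifted by -0.60 on the log2 scale.

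CTNND1, the gene of p120-catenin on chromosome 11, had the highest ratio in OR2 of the 3 catenin genes of the set. The brighter probe (NM_001331, from 57586315 to 57586374) gave intensities of 443 in H1975 against 509 in OR1 and 688 in OR2. Its ratios were 1.31 in OR1 and 1.51 in OR2, log2 ratios of 0.39 and 0.59. The second probe (NM_001206885, from 57582867 to 57582926) gave 62.1, 56.8 and 76.4, with ratios of 1.04 and 1.20. Neither probe passed the ratio of 2 in a line. With spike-in scaling the OR1 ratio of the brighter probe was 0.863, on the other side of 1.

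Genes around CDH1 and CDH3 on chromosome 16 were examined for a shared decrease, with the 20 nearest genes that had a ratio in both lines. Around CDH1, within 508 kb, their median log2 ratio was -0.022 in OR1 and -0.24 in OR2, beside 0.039 and -0.057 over all genes. Of the 20, 3 (15%) were lower in both lines and none higher. Around CDH3, within 473 kb, the medians were -0.23 and -0.32, with 5 (25%) lower and none higher. Over all genes, 6.32% were lower in both lines, and each cadherin is counted among the neighbours of the other. The share of 15% around CDH1 was also found around CDH6, CDH13 and CTNNB1. It was 5% around CDH2, CDH4 and CDH11, 10% around CTNND1 and 0% around CTNNA1. The 5 around CDH3 were CDH1 itself, the noncoding RNAs lnc-CDH3-1 and lnc-SLC7A6OS-2, the splicing factor gene ESRP2 and the hyaluronan synthase gene HAS3, named after their values were seen. The lnc-CDH3-1 probe lies between CDH3 and CDH1 and had ratios of 0.180 in OR1 and 0.326 in OR2. For HAS3 they were 0.342 and 0.368, and for lnc-SLC7A6OS-2 0.413 and 0.373. Unlike CDH1 and CDH3, HAS3, ESRP2 and lnc-SLC7A6OS-2 had ratios of similar size in OR1 and OR2.

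**Figure D3:**
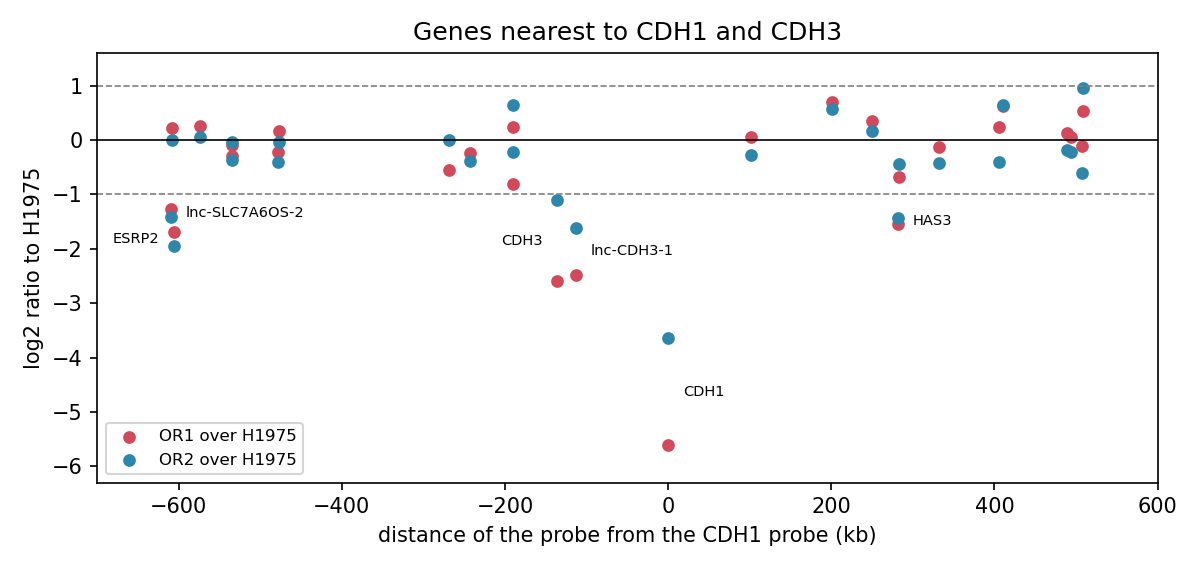
Log2 ratio to H1975 of genes near CDH1 and CDH3 (vertical axis) against the distance of their probes from the CDH1 probe in kb (horizontal axis), for OR1 and OR2. Named points are lower in both lines. The decrease is deepest at CDH1, and most other genes lie between the dashed lines for ratios of 2 and 0.5.

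Around the other cadherin and catenin genes, the 20 nearest genes had median log2 ratios between -0.22 and 0.39 in OR1 and between -0.12 and 0.35 in OR2. The upper ends were both from the surroundings of CTNNB1, where the medians were 0.39 and 0.35. The ratio of 1.30 for CTNNB1 in OR1, a log2 ratio of 0.37, was thus close to the median of its neighbours, whereas in OR2 CTNNB1 had a log2 ratio of 0.0049, below their median.

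Of 15 other cadherins, 7 had a reading well above background in some line. Only CDH18, a type II cadherin of the nervous system, was higher in both lines, with intensities of 10.1, 28.4 and 40.0. The ratio was at least 2.57 for OR1 and at least 3.10 for OR2, and the call ended with spike-in scaling, with normexp background correction and where all 3 arrays had to be well above background. No further cadherin of this list or of the set was called lower in both lines than CDH1 and CDH3. The 8 of this list and 3 of the set not well above background on any array could not be called lower. Desmosomal cadherins were not listed. Of those near CDH2, DSC2 was lower in both lines, at most 0.0652 and 0.0616, and DSG2 (0.506 and 0.555) was not called.

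Among 21 other catenins and junction linkers, 18 were well above background, of which 3 were lower and 2 higher in both lines. JUP encodes plakoglobin, the close relative of β-catenin that also binds cadherin tails. JUP intensity was 5916 in H1975 against 899 in OR1 and 1309 in OR2, with ratios of 0.173 and 0.215, whereas CTNNB1 was not called. CAMSAP3, which anchors microtubules at cadherin junctions, had ratios of 0.141 and 0.221. PVRL4, the gene of nectin-4, had intensities of 663, 8.20 and 25.2, so OR1 had a ratio of at most 0.0196 and OR2 one of 0.0370. PVRL3, the gene of nectin-3, moved the other way, with intensities of 21.0, 174 and 371 and ratios of 9.45 and 17.2. ARVCF, a catenin of the p120 family, had ratios of 2.14 and 4.67, and its OR1 value fell below 2 under 5 alternatives, among them 1.88 without scaling. The median log2 ratio of the list was -0.31 in both lines.

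All 12 genes of cadherin processing, turnover and dephosphorylation were well above background, and 1 changed in each direction. PTPRM, a receptor phosphatase that associates with cadherins, had intensities of 66.4, 342 and 193 and ratios of 5.88 and 2.83, of which the latter was 1.95 with normexp background correction. CBLL1 encodes Hakai, a ubiquitin ligase of E-cadherin, and had ratios of 0.486 and 0.497. Its OR2 ratio was 0.501 with quantile normalization, so this call did not hold. ADAM10, the main sheddase of E-cadherin, had ratios of 1.06 and 0.805. The median log2 ratio of the list was 0.11 in OR1 and 0.26 in OR2.

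The transcriptional repressors of CDH1 did not move together. Of 8, 6 were well above background, with 1 higher and 1 lower in both lines. Over the 4 that had a ratio in both lines, the median log2 ratio was -0.44 in OR1 and in OR2. ZEB1, a zinc finger repressor that binds E-boxes of the CDH1 promoter, had intensities of 136 in H1975 against 564 in OR1 and 718 in OR2. Its ratios of 4.74 and 5.14 differed little between the resistant lines. SNAI1, which encodes Snail, was lower, with intensities of 6112, 1968 and 1782 and ratios of 0.367 and 0.284. SNAI2 had ratios of 0.617 and 0.546 and was not called. TCF4 and ZEB2 were above background in OR1 and in no other line, and whether any repressor acted on CDH1 was not tested. The ratios in OR1 were at least 7.36 for TCF4, with intensities of 2.66, 81.1 and 2.76, and at least 2.61 for ZEB2, with 3.11, 28.7 and 11.4. The technical SD of these readings, before the H1975 side was raised, was 1.46 for TCF4 and 1.47 for ZEB2, as wide as for CDH6 and CDH11. It takes in the H1975 reading that was not well above background and is not the SD of the bound.

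Regulators that maintain epithelial expression included 7 genes of 11 well above background that were lower in both lines and none that was higher. Their median log2 ratio was -2.81 in OR1 and -1.95 in OR2. OVOL2, an epithelial repressor of ZEB1, had intensities of 1621, 7.56 and 12.2, with ratios of at most 0.00802 and at most 0.00757. OVOL1 had intensities of 1333, 3.08 and 2.93 and ratios of at most 0.00976 and at most 0.00921. The technical SD before the low side was raised was 1.17 and 1.32 for OVOL1, against 0.57 and 0.41 for OVOL2. These 2 genes were not well above background in either resistant line, whereas CDH1 was in both.

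**Figure D4:**
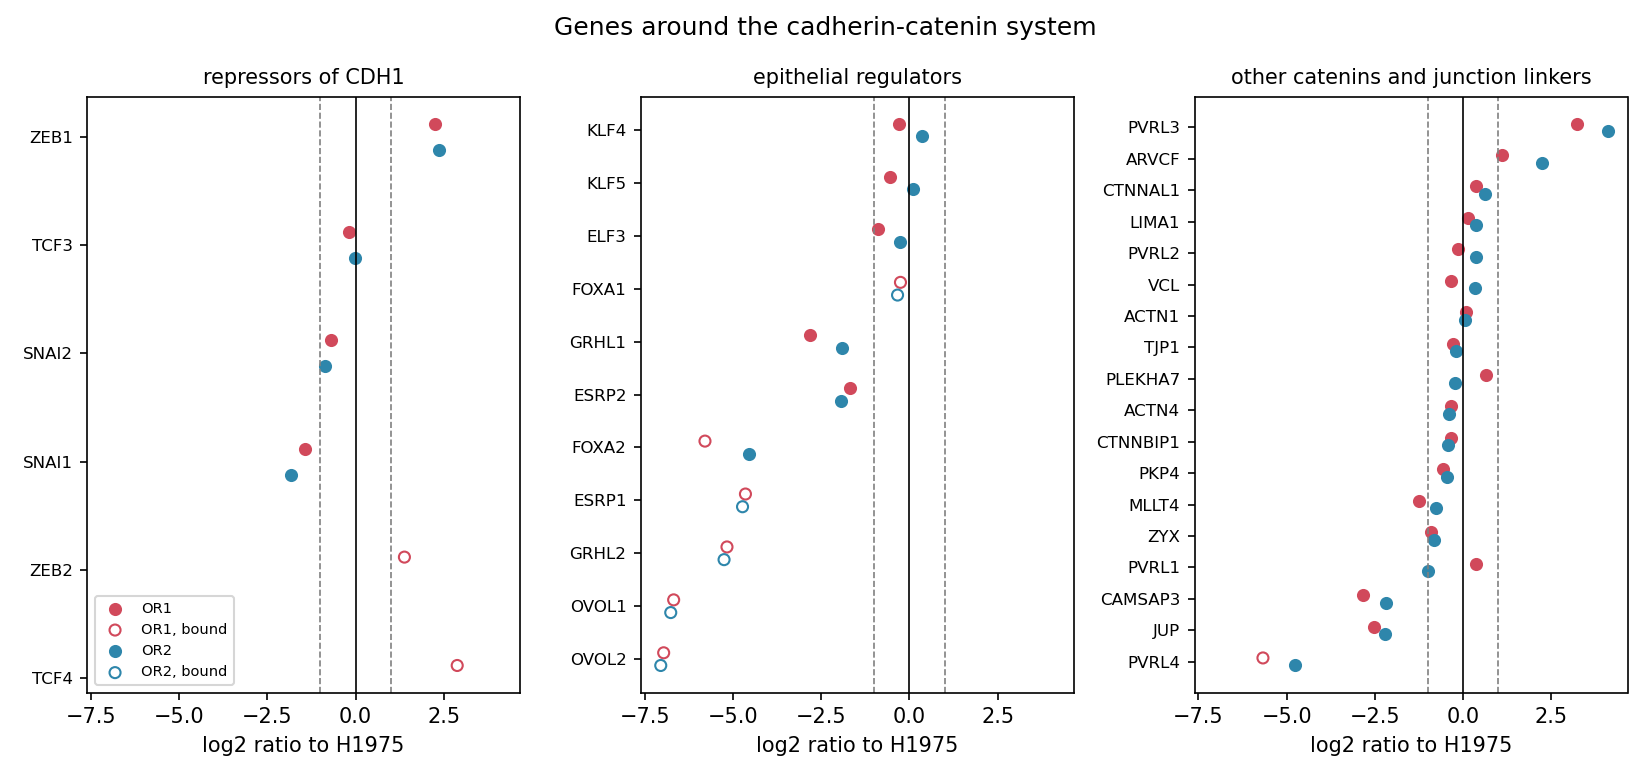
Log2 ratio to H1975 of repressors of CDH1, epithelial regulators, and other catenins and junction linkers in OR1 and OR2. Open points are bounds and dashed lines mark the ratios of 2 and 0.5. ZEB1 lies above and SNAI1 below the lines in both resistant lines, and 7 epithelial regulators lie below. JUP, CAMSAP3 and PVRL4 lie far below most junction linkers.

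Genes tied to the signaling role of β-catenin were examined beside CTNNB1. In the destruction complex and among nuclear partners, 13 of 14 genes were well above background, with 1 higher and 1 lower in both lines. AMER1, a membrane recruiter of the destruction complex, had ratios of 2.52 and 2.19, and its call ended with the median over probes (1.54 in OR1), with spike-in scaling (1.66 in OR1) and with normexp (1.81 in OR2). TCF7, a DNA-binding partner of β-catenin, had intensities of 588, 32.8 and 93.5 and ratios of 0.0636 and 0.155. Of 12 target genes of β-catenin and TCF, 9 were well above background and SP5 was higher in both lines, with intensities of 77.4, 314 and 196 and ratios of 4.63 and 2.46. With normexp background correction the OR2 ratio of SP5 was 1.84. In OR1, 4 targets passed the ratio of 2 and in OR2 1 did, and none was lower. MYC was 2.41 in OR1 and 1.89 in OR2, and with quantile normalization its ratios of 2.49 and 2.17 passed in both. Median log2 ratios were 0.28 in OR1 and 0.44 in OR2 for the 8 targets with a ratio in both lines, and 0.20 and 0.089 for the partners.

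Marker genes were read to check the cells behind these values. Of 10 lung epithelial markers, 8 were well above background, 3 were lower in both lines and none higher. EPCAM, an epithelial adhesion molecule, had intensities of 18987, 616 and 1415 and ratios of 0.0370 and 0.0725. KRT7 had ratios of 0.164 and 0.170, and KRT19 of 0.463 and 0.492. KRT8 (1.12 and 0.964), KRT18 (0.884 and 0.806) and NAPSA (0.770 and 1.57) passed neither ratio in either line. MUC1 (0.241 and 0.594) and NKX2-1 (0.252 and 1.36) were lower in OR1 only. The summed scaled intensity of the list was 2464 in H1975 against 1076 in OR1 and 1078 in OR2. KRT19 and KRT7, both lower in OR1 and OR2, weighed most in the H1975 sum. The alveolar markers SFTPB and SLC34A2 were not well above background in any line. Of 9 fibroblast markers, 4 were well above background in some line, none was higher in both lines, and COL1A2 was lower with ratios of 0.162 and at most 0.0615. Their summed scaled intensity was 4.42, 5.02 and 0.700, and DCN, PDGFRA and COL3A1 were above background nowhere. LUM, a fibroblast proteoglycan gene, was above background in OR1 only, with intensities of 2.50, 59.8 and 2.53 and a ratio of at least 5.43. The technical SD of LUM in OR1, before the H1975 side was raised, was 1.46. COL1A1 had ratios of 1.45 in OR1 and 0.183 in OR2. Of 6 endothelial markers, 2 were above background and none was called in both lines, with sums of 0.444, 0.651 and 0.464. PECAM1 passed the ratio of 2 in OR1, at 2.10, and was 1.19 in OR2. Of 5 leukocyte markers on the array, 4 were above background, with CD14 higher (ratios of 4.25 and 6.56), CSF1R lower (0.249 and 0.375) and sums of 20.4, 13.0 and 19.7. PTPRC, which marks all leukocytes, had intensities of 21.0, 20.7 and 20.5, and the part of other cells in the cadherin values was not tested.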

How the data were processed

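The authors hybridized Cy3-labeled cRNA of each line to 1 Agilent single-colour array and deposited the scanner software's spot intensity, corrected for background but not scaled between arrays, with its error. The software was Agilent Feature Extraction 9.5.1.1 per the submitters' processing notes, although the file headers name another version. Their second deposited table of normalized intensity served as an alternative. Control and outlier-flagged spots (45, 61 and 46 in H1975, OR1 and OR2) were left out here, repeated spots averaged as log2, and each array's 75th percentile subtracted. Of 58200 probes, 45.6% to 45.9% were well above background and no spot was saturated. The probe with the highest mean stood for a gene. Probe positions are those of the files, on hg19. Of the 18 probes, 15 had RefSeq accessions, and all 15 were found in the RefSeq gene table with the same symbol.

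Each line was mapped by its label. The cadherin and catenin genes and the lists of 126 other genes (124 on the array) were chosen with earlier results of these data known. All genes of the set are named, and from each list the 2 largest changes in each direction among genes past the ratio in both lines, ranked by the less changed line. A few more list members were named with their values in view. For CDH1 and CDH3, the 2 nearest genes by pattern are named. The 15 alternatives changed scaling, background, spot and probe choice, filter or ratio, or fitted limma to OR1 and OR2 as 2 samples. Counting was tested on simulated data. Python 3.11.15, numpy 2.4.6, pandas 2.3.3, R 4.3.3 and limma 3.58.1 were used.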

Additional observations from a re-analysis of the deposited data

Results flagged for a closer look

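For 4 gene lists the median log2 ratio to H1975 had opposite signs in OR1 and OR2, and none of these differences was tested, since each line had 1 array. For other cadherins it was -0.10 in OR1 and 0.28 in OR2, a difference of -0.38. For repressors of CDH1 it was 0.60 and -0.44, a difference of 1.04, with 6 genes behind the OR1 value and 4 behind that of OR2. Over the 4 genes with a ratio in both lines it was -0.44 in each, so the difference came from TCF4 and ZEB2, which had a ratio in OR1 only. For fibroblast markers it was 0.082 and -2.45, a difference of 2.53, over 4 and 3 genes. Over the 3 genes with a ratio in both it was -0.37 and -2.45, both negative, since LUM had a ratio in OR1 only. For leukocyte markers it was -0.070 and 0.13, a difference of -0.20. In each case the sign is that of OR1 minus OR2.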

How the results depend on the processing

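Of 15 alternatives, the count of cadherin and catenin genes lower in both lines (CDH1 and CDH3) was 1 with quantile normalization, 1 with the authors' normalized table and 1 with ratios of 4 and 0.25, CDH3 in OR2 being the value outside the threshold, and 3 without the background filter. In limma, which took OR1 and OR2 as 2 samples left 1 residual degree of freedom and lets the single H1975 array share their spread, 0 were lower and 0 higher at an adjusted p of 0.05. At an unadjusted p under 0.05, 1 was lower and 0 higher, and the adjusted p of CDH1 was 0.109 and that of CDH3 0.286. The count higher in both was 0 throughout. Of 224 recomputed ratios of these genes, 200 moved by less than 1 technical SD, 24 by more, and no called ratio changed direction. Part of the 200 could not move. No spot was saturated, and the background filters leave ratios between readings well above background unchanged. CDH1 and CDH3 have 1 probe each, so their median over probes is the same value. The bounds of CDH6 and CDH11 were judged against a technical SD of 1.47. CDH1 ranged from 0.0135 to 0.0308 in OR1 and from 0.0789 to 0.0903 in OR2, and its OR2 to OR1 ratio from 2.93 with normexp to 6.21 with spike-in scaling. Of 264 list counts, 28 moved by more than 1.5 times. Over all genes, 1141 were higher and 1417 lower in both lines, against 461 and 705 with normexp, 208 and 373 with limma, 265 and 422 at ratios of 4 and 0.25, 2573 and 2957 at 1.5 and its inverse, and 2057 and 2437 without the background filter. With spike-in scaling 591 were higher, and with all 3 arrays required above background 874 were lower. No paired analysis was possible because each line had 1 array, and all 3 arrays shared the slide, so it gave no block. Background limits CDH2, CDH4 and CDH13, for which no change could be measured.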
